A study of Homo sapiens with 18 samples.

Results

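The genes described here are 40 protein-coding genes of ribosome biogenesis and the nucleolus, chosen by name as members of that pathway. All 40 were listed in each of the authors' 3 tables, of 25673 entries for RKO, 19881 for COLO 201 and 19977 for H1975, and all 40 passed the filter of a mean of at least 1 TPM in each table. TPM is a count of transcripts scaled by gene length to a fixed total in every column, so levels can be set side by side between genes of a table. The study sequenced messenger RNA of 3 human cancer cell lines, RKO and COLO 201 from colon cancer and H1975 from lung cancer. Every line carried a tetracycline-inducible hairpin that targets MUC1 (a mucin anchored in the cell membrane) and a puromycin resistance gene. Cells were given 500 ng/ml doxycycline, which switches the hairpin on, or 0.1% DMSO as the vehicle, in medium with 10% serum, EMEM for RKO and RPMI1640 for COLO 201 and H1975. Each line had 6 samples, 3 columns per arm, from triplicate cultures.

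All 18 sample labels name the same agent, so the arm was read from the column headings. In RKO the vehicle columns are headed DOX with no sign, and that reading is inferred. No column with doxycycline and a control hairpin was analysed here, so effects of MUC1 loss and of doxycycline or the hairpin itself cannot be told apart. Nothing in the labels says whether the triplicates were separate cultures from different days, so p-values measure the spread between these columns, which may be technical.

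Ribosomes are assembled in the nucleolus. RNA polymerase I transcribes the long precursor of the ribosomal RNAs. Small nucleolar ribonucleoproteins (snoRNPs) modify its bases, box C/D particles by methylation and box H/ACA particles by pseudouridylation, and sets of assembly factors cut and fold the precursor into the small and the large subunit. Growing cancer cells use this pathway heavily, and the transcription factor MYC is known to raise transcription of many of its genes.

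MUC1 served as a check of the headings. It stood at 0.108, 0.105 and 0.204 TPM in doxycycline columns of RKO, against 15.2, 1.24 and 1.03 TPM in vehicle columns. It stood at 2.03, 1.78 and 1.53 TPM with doxycycline in COLO 201, against 13.2, 15.0 and 13.6 TPM with vehicle, and at 7.05, 9.56 and 7.44 TPM with doxycycline in H1975, against 101, 86.2 and 105 TPM with vehicle. The arms did not overlap in any line. The RKO check is the weakest, since vehicle column 1 stood far above the other vehicle columns. By the limma test described below, the RKO adjusted p was 0.0027 as deposited and 0.14 after rescaling. Without that column MUC1 fell under the filter of 1 TPM in RKO and was not tested. A column of RKO listed 14935 to 16935 genes with a value above 0, one of COLO 201 14712 to 15217 and one of H1975 15235 to 16083. TPM leave the read depth unknown. The epithelial markers EPCAM, KRT8 and KRT18 were at or above 1 TPM in every column of every line, while KRT19 and CDH1 were under 1 TPM in every RKO column. RKO vehicle column 1 stood apart. Its 16 fibroblast and endothelial markers summed to 1011 TPM, with 10 of 16 at or above 1 TPM, and the other RKO columns summed to 23.6 to 31.3 TPM with doxycycline and 39.3 to 47.5 TPM with vehicle. SPARC, COL1A2, COL3A1 and THY1 were at 0 in every other RKO column, and this column's share in the RKO results is given by leaving it out. Of these markers 15 were listed in COLO 201 and in H1975. They summed to 171 to 187 TPM with doxycycline in COLO 201, against 56.1 to 61.2 TPM with vehicle, and FN1 made most of the doxycycline sum. They summed to 1128 to 1217 TPM with doxycycline in H1975, against 1323 to 1470 TPM with vehicle. Leukocyte and erythroid markers summed to 391.5 to 489 TPM with doxycycline in RKO, against 121 to 262 TPM with vehicle, nearly all of it CD68, while PTPRC was below 0.1 TPM in every column of every line. They summed to 693 to 742 TPM with doxycycline in COLO 201, against 1283 to 1291 TPM with vehicle, mostly LYZ, and to 279 to 331 TPM with doxycycline in H1975, against 160 to 170 TPM with vehicle. Whether these cell markers bear on the pathway's changes in COLO 201 and H1975 was not tested.

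NPM1 and NCL, the nucleolar proteins nucleophosmin and nucleolin, were the most abundant members in every table. NPM1 averaged 498 TPM over the 6 columns of RKO, 821 TPM in COLO 201 and 1047 TPM in H1975, and NCL averaged 405, 478 and 750 TPM. PPAN, a large subunit factor, was the least abundant member in every table, at 2.14, 1.45 and 3.38 TPM. BOP1 was the next lowest in COLO 201 and H1975, at 4.46 TPM in each. PPAN shares its strand and position with P2RY11 and the readthrough gene PPAN-P2RY11, and NPM1 has 45 named pseudogenes, so counts of both are uncertain. WDR74 contains the small nuclear RNA gene RNU2-2P on its own strand, and reads of the pair may not be separable. On the opposite strand, TSR1 overlaps SGSM2 and SRR, MRTO4 overlaps EMC1, IMP4 overlaps CCDC115, NHP2 overlaps RMND5B, NIP7 overlaps COG8 and BOP1 overlaps SCX. The counting tool and its strand setting are not given in the sources used here, so values of these genes are uncertain too. Gene positions below are those of GENCODE 29 on GRCh38.

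The recognition word of MYC, CACGTG, was looked up in promoters because MYC was among the measured regulators of this pathway. RefSeq windows (GRCh38.p14) from 250 bases before to 50 bases after the start were matched for 34 of 40 members, and 10 of 34 held the word, 29.4%. The word is its own reverse complement, so a match counts for both strands, and no other motif was searched. It was present in 8.88% of 15842 windows of protein-coding genes, in 25.7% of 105 windows of other ribosome biogenesis factors and in 4.76% of 63 windows of ribosomal protein genes. Of the members described by column below, 5 held it, and their matches are shown on the strand of the gene with the word in capitals.
UTP20, chr12:101280083-101280112, plus strand: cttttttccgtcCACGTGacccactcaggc
NOP14, chr4:2963374-2963403, minus strand: tccgcggcccggCACGTGtcttagggtagc
IMP4, chr2:130342682-130342711, plus strand: gcggtcctaagtCACGTGtgacattctgta
IMP4, chr2:130342900-130342929, plus strand: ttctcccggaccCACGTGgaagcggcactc
MRTO4, chr1:19251807-19251836, plus strand: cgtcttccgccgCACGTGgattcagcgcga
WDR43, chr2:28894658-28894687, plus strand: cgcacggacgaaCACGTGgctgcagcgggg
The word began 10 bases before the start in UTP20 (position -10) and at positions 16 in NOP14, 15 in MRTO4 and 4 in WDR43. IMP4 was the only matched member with a pair of matches, at positions -203 and 16. A match says only that these letters are in the window.

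With doxycycline, many members were slightly higher in H1975 and COLO 201 and a few were lower in RKO, and rescaling brought the COLO 201 and RKO medians to near 0. Genes were tested with limma on log2(TPM + 1), two-sided, and called at an adjusted p under 0.05 after Benjamini-Hochberg adjustment over all genes tested in a line. Changes are doxycycline minus vehicle on that scale, with their standard error. In H1975, 18 of 40 members were higher and 1 was lower, beside 23.9% and 14.6% of all genes tested. In COLO 201, 20 of 40 were higher and 5 lower, beside 45.9% and 15% of all genes tested, so the share of higher members lay near the background. In RKO, 0 of 40 were higher and 5 lower, beside 2.09% and 16.1% of all genes tested. At an unadjusted p under 0.05 from limma, 0 were higher and 14 lower in RKO. Counts at an unadjusted p, here and below, have no share over all genes at that cutoff beside them. They are no result about the members or the lists. The H1975 count of higher members was 6 without doxycycline column 1, beside 15.7% of all genes tested, so that without this column the share of higher members lay near the background. It was 10 without vehicle column 1, beside 13.1%. The RKO count of lower members was 0 without doxycycline column 1 or 3 (6 and 4 at an unadjusted limma p under 0.05), beside 4.48% and 8.41% of all genes tested. It was 11 without doxycycline column 2, beside 21.8%, and 3 without vehicle column 1 or 2, beside 18.2% and 13%. Called changes ran between 0.17 and 0.47 for higher members of H1975 and between 0.11 and 0.55 for those of COLO 201. Lower members ran between -0.31 and -0.13 in COLO 201 and between -0.74 and -0.60 in RKO. Standard errors were 0.18 to 0.25 in RKO, 0.06 to 0.12 in H1975 and 0.04 to 0.09 in COLO 201. In bulk RNA, fewer cells expressing a gene and less RNA per cell cannot be told apart.

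The median change of the 40 members was 0.15 in H1975, against 0.06 over all genes tested. It was 0.13 in COLO 201, against 0.12 over all genes tested, and -0.33 in RKO, against -0.26. Dividing each column by the median ratio of its genes to their geometric mean removed most of these shifts of all genes. After that rescaling the member medians were 0.11 in H1975, 0.00 in COLO 201 and -0.04 in RKO, so the direction of the pathway as a group rested on the scaling in COLO 201 and RKO. The rescaled counts were 16 higher and 2 lower in H1975, beside 21.2% and 18.5% of all genes tested. They were 8 higher and 13 lower in COLO 201, beside 27.3% and 29.7%. The 5 members lower as deposited were among those 13, joined by DDX21, DKC1, MRTO4, NCL, NOLC1, NOP58, TSR1 and UTP15. In RKO they were 2 higher (POLR1A and WDR74) and 5 lower (FBL, MRTO4, TSR1, UTP15 and UTP20), beside 13.8% and 14%. In RKO the share of TPM held by small noncoding RNA genes was 71.1% to 78.7% in doxycycline columns, against 67.8% to 72.0% in vehicle columns. With those genes removed, an alternative chosen after seeing the data, the RKO median was -0.07 with 0 members higher and 5 lower. Beside these counts, 10.1% of all genes tested were higher and 13.2% lower, so the share of lower members lay near the background. Without RKO vehicle column 1, 0 were higher and 3 lower (MRTO4, TSR1 and UTP20), beside 2.1% and 18.2% of all genes tested. Without it and after rescaling, 10 were higher and 11 lower, beside 29.1% and 29.8%.

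**Figure D1:**
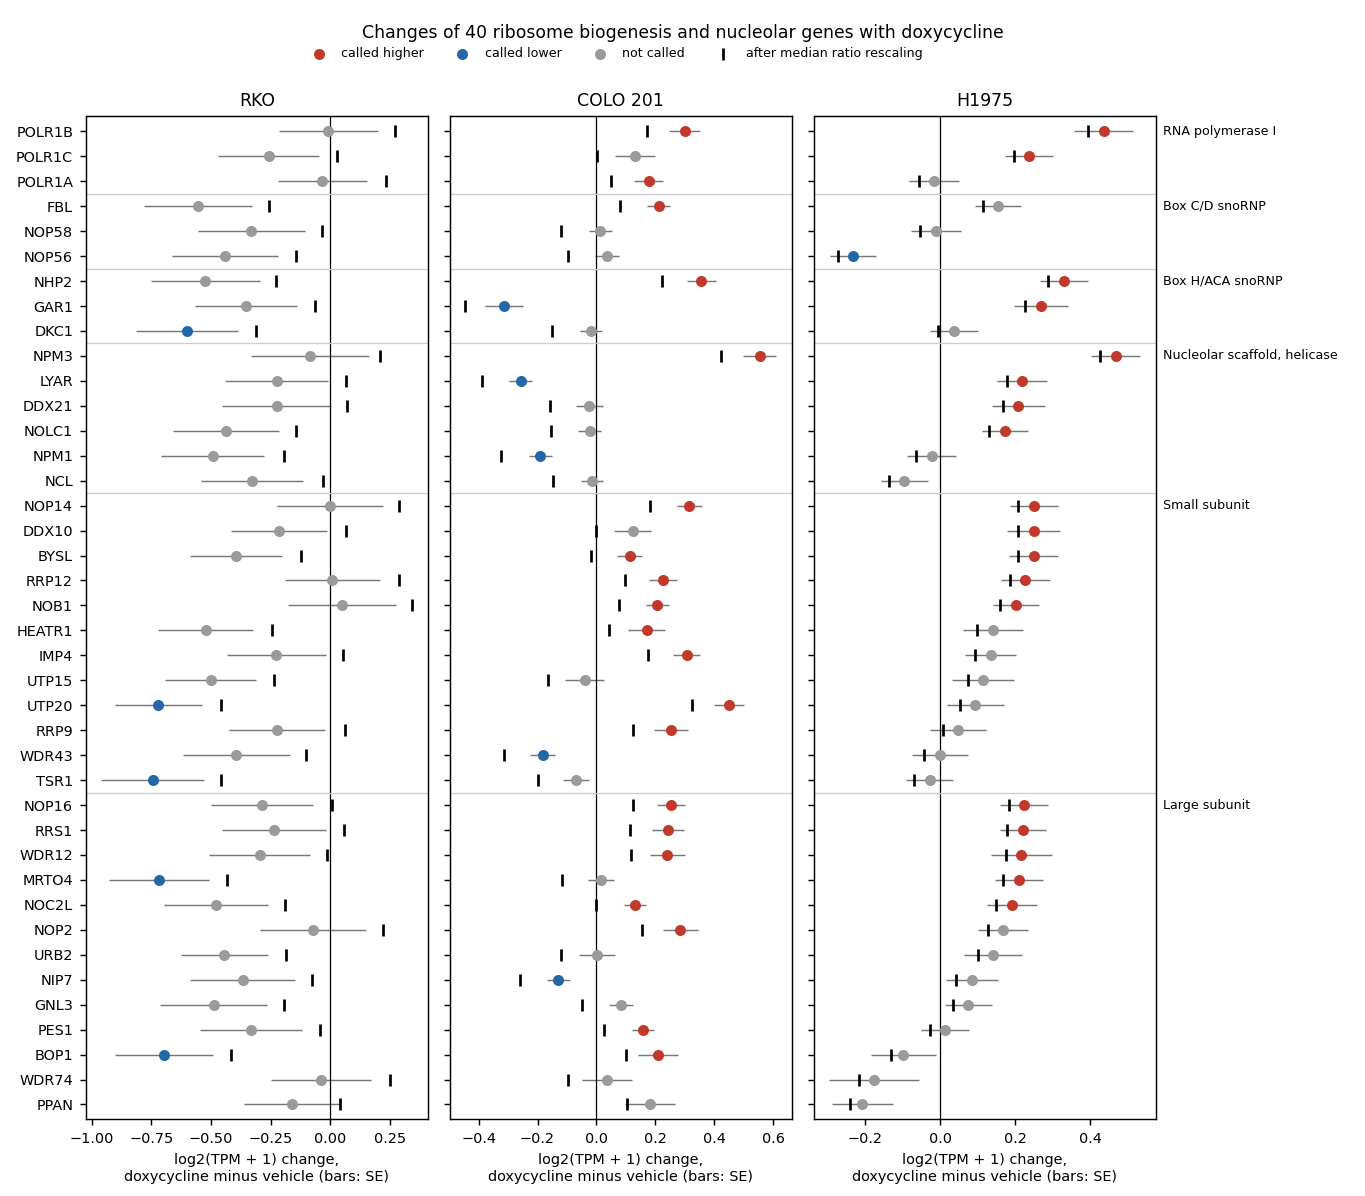
Change of each member, doxycycline minus vehicle on the log2(TPM + 1) scale (horizontal axis), in RKO, COLO 201 and H1975, with members grouped by role down the page. Points are limma estimates with their standard error, colored by call at an adjusted p under 0.05, and black ticks are the change after median ratio rescaling. Ticks lie right of the points in RKO and left of them in COLO 201 and H1975, and the horizontal scales differ between panels.

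The 40 members summed to 6618, 6524 and 6763 TPM in doxycycline columns of H1975, against 6025, 6547 and 6258 TPM in vehicle columns. They summed to 4381, 4200 and 4215 TPM with doxycycline in COLO 201, against 4146, 4237 and 4085 TPM with vehicle. They summed to 1544, 2107 and 1741 TPM with doxycycline in RKO, against 2416, 2500 and 2105 TPM with vehicle. The arms overlapped in all 3 lines, in RKO only between doxycycline column 2 and vehicle column 3. Member by member, all 3 doxycycline columns were above all 3 vehicle columns for 19 of 40 in H1975, 21 in COLO 201 and 0 in RKO, beside 30.7%, 48.5% and 3.9% of all genes tested. They were below for 3, 5 and 15, beside 18.4%, 16.6% and 32.4%.

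**Figure D2:**
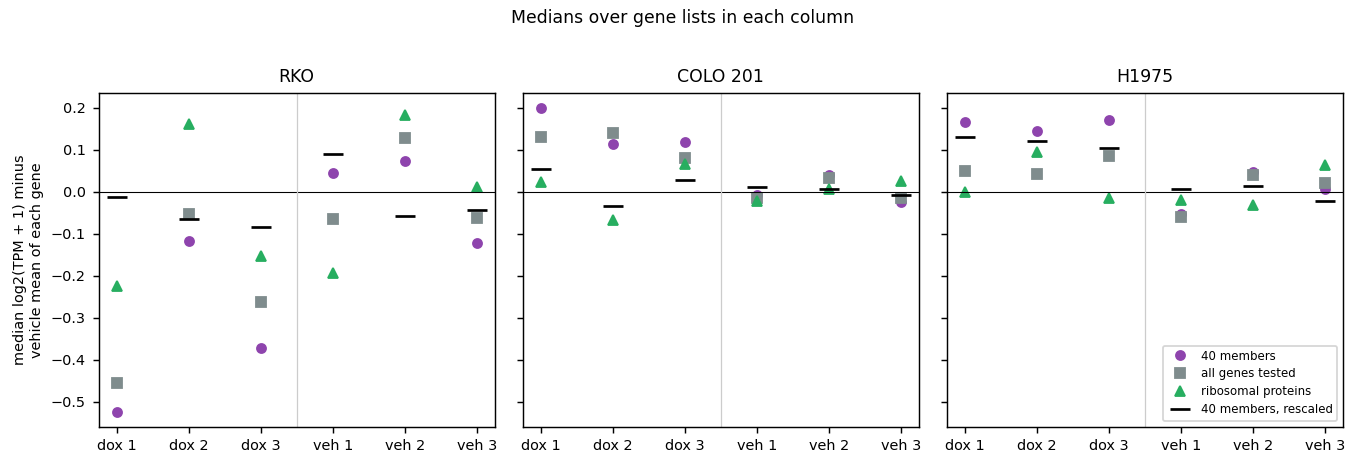
Median over each gene list of log2(TPM + 1) minus the vehicle mean of each gene (vertical axis), for every column of the 3 lines, doxycycline columns left and vehicle columns right of the line. In H1975 the members stood at 0.17, 0.14 and 0.17 with doxycycline and all genes tested at 0.05, 0.04 and 0.08. In RKO the members stood at -0.52, -0.12 and -0.37 with doxycycline as deposited and at -0.01, -0.06 and -0.08 after rescaling.

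Of the 3 RNA polymerase I subunits, POLR1B was called higher in both COLO 201 and H1975. POLR1B (chromosome 2, 112541915 to 112577150, plus strand) encodes the second largest subunit of the enzyme. It stood at 80.4, 76.4 and 87.7 TPM with doxycycline in H1975, against 55.4, 65.7 and 59.0 TPM with vehicle, a change of 0.44 ± 0.08 (limma adjusted p = 7.4e-04). It stood at 26.4, 24.7 and 23.5 TPM with doxycycline in COLO 201, against 19.2, 20.8 and 19.999 TPM with vehicle, a change of 0.30 ± 0.05 (limma adjusted p = 4.2e-04, and 0.17 with adjusted p = 0.0063 after rescaling). The arms did not overlap in either line. In RKO it stood at 10.8, 15.6 and 12.7 TPM with doxycycline, against 10.3, 15.6 and 13.5 TPM with vehicle, and the arms overlapped. Of the other subunits, POLR1C, which RNA polymerase III shares, was called higher in H1975, and POLR1A, the largest subunit, was called higher in COLO 201 and lost that call after rescaling.

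Of the 3 box C/D particle proteins, NOP56 (chromosome 20, 2652145 to 2658393, plus strand), a core scaffold protein, was the only member called lower in H1975. It stood at 223, 228 and 213 TPM with doxycycline, against 263, 256 and 261 TPM with vehicle, a change of -0.23 ± 0.06 (limma adjusted p = 0.0088). In COLO 201 it stood at 290, 276 and 287 TPM with doxycycline, against 272, 287 and 272 TPM with vehicle, and in RKO at 59.5, 78.3 and 67.9 TPM with doxycycline, against 89.7, 102 and 87.3 TPM with vehicle. The RKO arms did not overlap, with an adjusted p of 0.16 from limma. FBL, fibrillarin, the methyltransferase of the particle, was called higher in COLO 201 and lost that call after rescaling. FBL was called lower in RKO after rescaling (-0.26, limma adjusted p = 0.048). NOP58, the partner of NOP56, was called in no line as deposited.

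In COLO 201 the proteins of the box H/ACA particle split, with NHP2 called higher and GAR1 lower. In H1975 both were called higher, and in RKO both changes were negative and neither was called. NHP2 (chromosome 5, 178149460 to 178153967, minus strand), a core protein of the particle, stood at 152, 161 and 157 TPM with doxycycline in H1975, against 124, 119 and 130 TPM with vehicle (0.33 ± 0.06, limma adjusted p = 0.0013). In COLO 201 it stood at 212, 191 and 217 TPM with doxycycline, against 157, 166 and 161 TPM with vehicle (0.36 ± 0.05, limma adjusted p = 6.3e-05, and 0.22 after rescaling). It rose in both lines with no overlap of the arms. The RKO values were 48.2, 66.8 and 55.6 TPM with doxycycline, against 99.1, 75.4 and 72.4 TPM with vehicle, below in every column, with a limma adjusted p of 0.11.

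GAR1 (chromosome 4, 109815510 to 109824740, plus strand), which sits at the catalytic side of the same particle, was called in opposite directions. It stood at 70.4, 82.3 and 71.6 TPM with doxycycline in COLO 201, against 94.3, 98.8 and 86.2 TPM with vehicle, a change of -0.31 ± 0.06 (limma adjusted p = 9.5e-04). It stood at 176, 160 and 192 TPM with doxycycline in H1975, against 143, 149 and 145 TPM with vehicle, a change of 0.27 ± 0.07 (limma adjusted p = 0.010). The arms did not overlap in either line, and both calls held after rescaling, at -0.45 and 0.23. RKO columns held 20.4, 27.5 and 22.9 TPM with doxycycline, against 28.5, 34.2 and 28.2 TPM with vehicle, without overlap and not called.

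DKC1 (chromosome X, 154762742 to 154777689, plus strand) encodes dyskerin, the pseudouridine synthase of the particle. Its RKO levels were 15.3, 20.9 and 16.5 TPM with doxycycline, against 31.6, 26.5 and 23.2 TPM with vehicle, a change of -0.60 ± 0.21 (limma adjusted p = 0.049). The arms did not overlap and the highest value was that of vehicle column 1. The call was lost after rescaling (-0.31, limma adjusted p = 0.11) and without vehicle column 1 (-0.49, limma adjusted p = 0.13). It was also lost without doxycycline column 1 or 3 or vehicle column 2 or 3 (limma adjusted p = 0.19, 0.26, 0.12 and 0.060). Without vehicle column 1 and after rescaling, DKC1 was called lower (-0.18, limma adjusted p = 0.012). DKC1 stood at 149, 143 and 148 TPM with doxycycline in COLO 201, against 146, 152 and 147 TPM with vehicle. It stood at 306, 288 and 308 TPM with doxycycline in H1975, against 282, 309 and 289 TPM with vehicle, and the arms overlapped in both lines. After rescaling DKC1 was called lower in COLO 201 (-0.15, limma adjusted p = 0.0066).

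**Figure D3:**
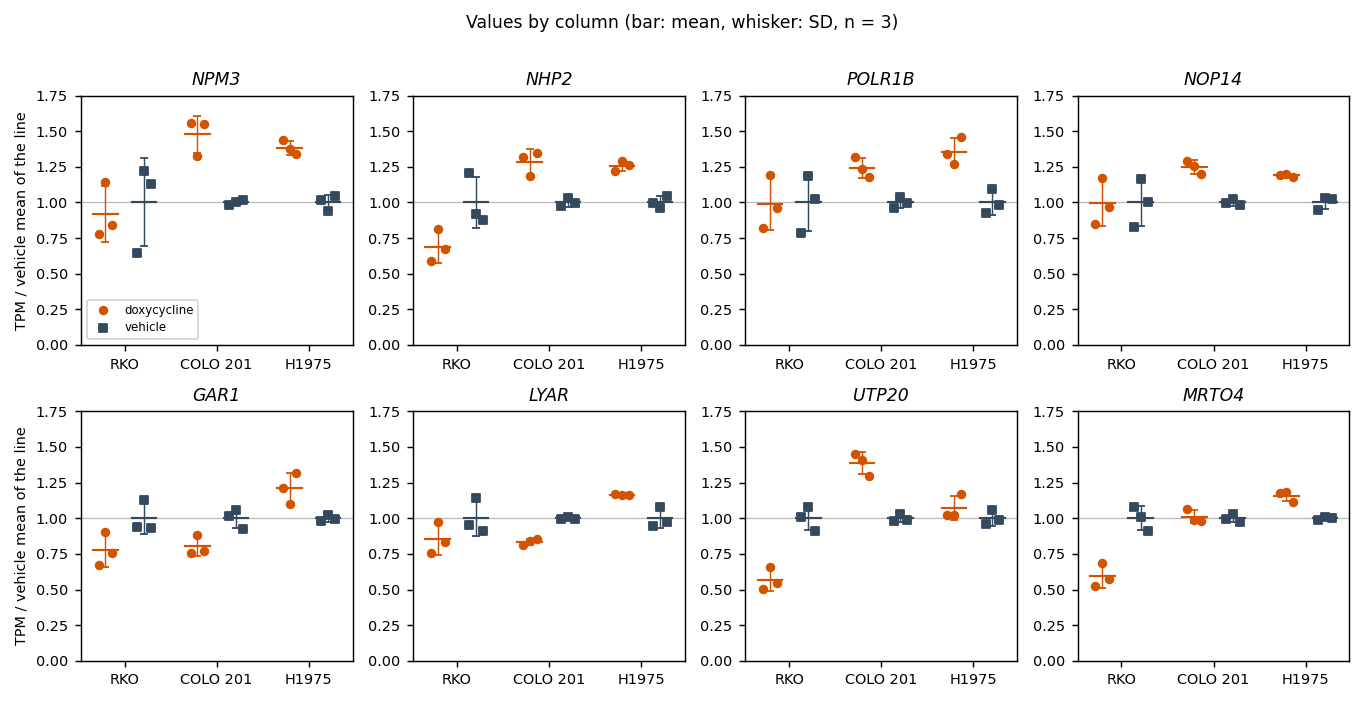
TPM of each column divided by the vehicle mean of its line (vertical axis, from 0) for 8 members in RKO, COLO 201 and H1975. Circles are doxycycline columns and squares vehicle columns, with the mean and SD of 3 columns. NPM3, NHP2, POLR1B and NOP14 lie above 1 in COLO 201 and H1975 with doxycycline, GAR1 and LYAR lie below 1 in COLO 201 and above 1 in H1975, and UTP20 and MRTO4 lie below 1 in RKO.

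NPM3 had the largest increase of the 40 members in COLO 201 and in H1975. NPM3 (chromosome 10, 101781325 to 101783413, minus strand) encodes a nucleoplasmin family protein related to NPM1. It stood at 129, 111 and 129 TPM with doxycycline in COLO 201, against 81.7, 83.3 and 84.7 TPM with vehicle, a change of 0.55 ± 0.06 (limma adjusted p = 4.2e-06). It stood at 229, 220 and 214 TPM with doxycycline in H1975, against 162, 150 and 167 TPM with vehicle, a change of 0.47 ± 0.07 (limma adjusted p = 1.1e-04). The doxycycline mean was 1.48 times the vehicle mean in COLO 201 and 1.38 times in H1975, and the rescaled changes were 0.42 and 0.43. RKO gave no such difference, at 40.7, 59.9 and 44.0 TPM with doxycycline, against 33.9, 64.0 and 59.2 TPM with vehicle, where vehicle column 1 was the lowest of the 6.

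NPM1 itself (chromosome 5, 171387116 to 171411137, plus strand), the abundant histone chaperone and ribosome transport protein of the nucleolus, went the other way in COLO 201. It stood at 786, 766 and 748 TPM with doxycycline, against 875, 888 and 861 TPM with vehicle, a change of -0.19 ± 0.04 (limma adjusted p = 0.0012, and -0.32 after rescaling). In H1975 it stood at 1015, 993 and 1110 TPM with doxycycline, against 1006, 1112 and 1048 TPM with vehicle, and the arms overlapped. In RKO it stood at 349, 498 and 397 TPM with doxycycline, against 637, 610 and 495 TPM with vehicle, with overlap between doxycycline column 2 and vehicle column 3 and no call.

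LYAR (chromosome 4, 4267701 to 4290169, minus strand), a zinc finger protein of the nucleolus, was also called in opposite directions. It stood at 50.2, 52.3 and 52.8 TPM with doxycycline in COLO 201, against 61.8, 62.7 and 61.7 TPM with vehicle (-0.26 ± 0.04, limma adjusted p = 1.3e-04, and -0.39 after rescaling). It stood at 154, 153 and 153 TPM with doxycycline in H1975, against 125, 142 and 129 TPM with vehicle (0.22 ± 0.07, limma adjusted p = 0.019). The arms did not overlap in either line, though the H1975 call was lost without doxycycline column 1, vehicle column 1 or vehicle column 3 (limma adjusted p = 0.080, 0.078 and 0.077). The RKO values were 25.9, 33.3 and 28.5 TPM with doxycycline, against 32.6, 39.1 and 31.2 TPM with vehicle, and the arms overlapped. DDX21, an RNA helicase, and NOLC1, a snoRNP chaperone, were called higher in H1975 and called in neither of the other lines as deposited. NCL was called in no line as deposited.

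Among the 12 small subunit factors, 8 were called higher and 1 lower in COLO 201, 5 higher and 0 lower in H1975, and 0 higher and 2 lower in RKO. Over all genes tested the shares higher and lower were 45.9% and 15% in COLO 201, 23.9% and 14.6% in H1975, and 2.09% and 16.1% in RKO. At an unadjusted limma p under 0.05, 0 were lower in H1975, and 0 were higher and 5 lower in RKO. After rescaling the COLO 201 counts were 3 and 3, beside 27.3% and 29.7% of all genes tested, and the H1975 counts 5 and 0, beside 21.2% and 18.5%. The RKO counts were then 0 and 3, beside 13.8% and 14%. The 3 higher after rescaling in COLO 201 were IMP4, NOP14 and UTP20. Small subunit factors belong to the processome that assembles on the precursor and to the later steps that release the subunit. NOP14 (chromosome 4, 2937933 to 2963385, minus strand), a processome protein, stood at 114, 115 and 113 TPM with doxycycline in H1975, against 90.5, 98.2 and 97.4 TPM with vehicle (0.25 ± 0.06, limma adjusted p = 0.0075). It stood at 72.2, 69.8 and 66.7 TPM with doxycycline in COLO 201, against 55.5, 57.0 and 54.7 TPM with vehicle (0.31 ± 0.04, limma adjusted p = 4.6e-05). The arms were apart in both lines and both calls held after rescaling, at 0.21 and 0.18. In RKO, at 28.3, 39.2 and 32.4 TPM with doxycycline, against 27.7, 38.9 and 33.4 TPM with vehicle, the columns of the arms nearly coincided.

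RRP12 (chromosome 10, 97356358 to 97426076, minus strand), a HEAT repeat protein of late assembly and export, stood at 69.5, 69.4 and 66.7 TPM with doxycycline in H1975, against 57.0, 57.6 and 60.7 TPM with vehicle (0.23 ± 0.06, limma adjusted p = 0.014). It stood at 24.9, 23.5 and 23.6 TPM with doxycycline in COLO 201, against 20.1, 21.2 and 19.8 TPM with vehicle (0.23 ± 0.05, limma adjusted p = 0.0015). The H1975 call was lost without doxycycline column 1 (limma adjusted p = 0.081), and the COLO 201 call was lost after rescaling (0.10, adjusted p = 0.055). RKO columns held 11.2, 15.3 and 12.7 TPM with doxycycline, against 14.5, 12.8 and 11.5 TPM with vehicle, and the arms overlapped. IMP4 (chromosome 2, 130342225 to 130347810, plus strand), which binds the U3 snoRNA complex, was higher in COLO 201. It stood there at 67.5, 62.7 and 69.5 TPM with doxycycline, against 55.1, 53.5 and 52.3 TPM with vehicle (0.31 ± 0.05, limma adjusted p = 1.2e-04, and 0.17 after rescaling). Its arms overlapped in H1975, at 117, 119 and 109 TPM with doxycycline, against 99.6, 105 and 109 TPM with vehicle, and in RKO, at 11.5, 17.5 and 13.6 TPM with doxycycline, against 15.1, 18.5 and 16.1 TPM with vehicle.

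UTP20 had the largest difference between lines of the 17 members described by column. UTP20 (chromosome 12, 101280109 to 101386616, plus strand) is a very large processome protein needed for cutting of the precursor. It stood at 30.7, 29.9 and 27.5 TPM with doxycycline in COLO 201, against 20.8, 21.8 and 20.9 TPM with vehicle, a change of 0.45 ± 0.05 (limma adjusted p = 1.1e-05). Its RKO levels were 4.75, 6.23 and 5.18 TPM with doxycycline, against 9.56, 10.3 and 8.66 TPM with vehicle, a change of -0.72 ± 0.18 (limma adjusted p = 0.0063). The arms were apart in both lines. The RKO change was -0.46 after rescaling (limma adjusted p = 0.0037) and -0.71 without vehicle column 1 (limma adjusted p = 0.011), and the COLO 201 change was 0.32 after rescaling. The RKO call was lost without doxycycline column 1 or 3 (limma adjusted p = 0.053 and 0.066). In H1975 the arms overlapped, at 29.7, 29.6 and 33.96 TPM with doxycycline, against 27.8, 30.7 and 28.6 TPM with vehicle.

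TSR1 (chromosome 17, 2322503 to 2337507, minus strand), a GTPase-like protein of late small subunit maturation, fell in RKO. It stood at 15.4, 21.3 and 17.6 TPM with doxycycline, against 36.3, 30.7 and 26.01 TPM with vehicle, a change of -0.74 ± 0.22 (limma adjusted p = 0.016). Every doxycycline column was below every vehicle column, and the change was -0.46 after rescaling (adjusted p = 0.039) and -0.63 without vehicle column 1 (limma adjusted p = 0.042). The call was lost without doxycycline column 1 or 3 (limma adjusted p = 0.11 in each case). In COLO 201 it stood at 41.6, 39.5 and 38.6 TPM with doxycycline, against 40.9, 43.2 and 41.6 TPM with vehicle, and in H1975 at 108, 109 and 112 TPM with doxycycline, against 108, 116 and 111 TPM with vehicle. After rescaling TSR1 was called lower in COLO 201 too (-0.20, limma adjusted p = 9.1e-04). WDR43 (chromosome 2, 28894643 to 28948222, plus strand), an early processome protein, fell in COLO 201. It stood there at 47.2, 49.1 and 46.3 TPM with doxycycline, against 53.5, 55.6 and 53.1 TPM with vehicle (-0.18 ± 0.04, limma adjusted p = 0.0024, and -0.31 after rescaling). Its arms overlapped in H1975, at 127, 118 and 134 TPM with doxycycline, against 119, 137 and 123 TPM with vehicle, and in RKO, at 21.5, 30.8 and 23.6 TPM with doxycycline, against 26.3, 40.5 and 34.3 TPM with vehicle.

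Among the 13 large subunit factors, 7 were called higher and 1 lower in COLO 201, 5 higher and 0 lower in H1975, and 0 higher and 2 lower in RKO. Beside the shares over all genes tested, 45.9% higher in COLO 201 and 16.1% lower in RKO, the COLO 201 and RKO counts lay near the background. At an unadjusted limma p under 0.05, 1 was lower in H1975, and 0 were higher and 5 lower in RKO. In H1975, 23.9% of all genes tested were higher and 14.6% lower as deposited. After rescaling the counts higher and lower were 2 and 2 in COLO 201, beside 27.3% and 29.7% of all genes tested. They were 3 and 1 in H1975, where PPAN was the lower gene, beside 21.2% and 18.5%. The H1975 share of higher factors then lay near the background. In RKO they were 1 and 1, beside 13.8% and 14%. MRTO4 (chromosome 1, 19251539 to 19260128, plus strand), which holds the place of the stalk protein on the immature large subunit, fell in RKO. It stood at 15.5, 20.3 and 16.8 TPM with doxycycline, against 31.8, 29.6 and 26.9 TPM with vehicle, a change of -0.72 ± 0.21 (limma adjusted p = 0.016, -0.43 with adjusted p = 0.016 after rescaling, and -0.66 with adjusted p = 0.030 without vehicle column 1). In H1975 it stood at 94.7, 95.2 and 89.7 TPM with doxycycline, against 79.2, 81.4 and 80.7 TPM with vehicle, a change of 0.21 ± 0.06 (limma adjusted p = 0.018). The arms were apart in both lines. The RKO call was lost without doxycycline column 1, doxycycline column 3 or vehicle column 2 (limma adjusted p = 0.086, 0.13 and 0.053). The H1975 call was lost without doxycycline column 1 or 2, or vehicle column 1 or 3 (limma adjusted p = 0.10, 0.05005, 0.053 and 0.059). In COLO 201 the arms overlapped, at 79.0, 73.6 and 73.0 TPM with doxycycline, against 74.2, 76.5 and 72.5 TPM with vehicle. After rescaling MRTO4 was called lower in COLO 201 too (-0.12, limma adjusted p = 0.022).

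BOP1 (chromosome 8, 144262102 to 144291370, minus strand) forms the PeBoW complex of large subunit processing with PES1 and WDR12. In RKO it stood at 8.33, 11.7 and 10.4 TPM with doxycycline, against 21.1, 15.6 and 14.5 TPM with vehicle, a change of -0.70 ± 0.21 (limma adjusted p = 0.018). In COLO 201 it stood at 4.88, 4.71 and 4.95 TPM with doxycycline, against 4.43, 4.02 and 3.75 TPM with vehicle, a change of 0.21 ± 0.07 (limma adjusted p = 0.019). The arms were apart in both lines, and neither call held after rescaling (limma adjusted p = 0.090 and 0.22). The RKO call was also lost without vehicle column 1, its highest column (-0.54, limma adjusted p = 0.076), and without doxycycline column 1 or 3 (limma adjusted p = 0.14 and 0.088). The COLO 201 call was lost without doxycycline column 1 or vehicle column 2 or 3 (limma adjusted p = 0.052, 0.057 and 0.095). In H1975 the arms overlapped, at 4.44, 3.81 and 4.57 TPM with doxycycline, against 4.76, 4.32 and 4.84 TPM with vehicle. WDR12 was called higher in COLO 201 and H1975, and PES1 in COLO 201. None of the 3 PeBoW genes was called after rescaling of all 6 columns in any line. Without vehicle column 1 and after rescaling, BOP1 was called lower in RKO (-0.25, limma adjusted p = 0.0024). NIP7 (chromosome 16, 69337996 to 69343111, plus strand), a factor of precursor processing, fell in COLO 201. It stood at 39.61, 39.58 and 38.69 TPM with doxycycline, against 43.3, 43.3 and 42.6 TPM with vehicle (-0.13 ± 0.04, limma adjusted p = 0.013, and -0.26 after rescaling). Its arms overlapped in H1975, at 98.5, 93.1 and 105 TPM with doxycycline, against 89.0, 97.7 and 92.4 TPM with vehicle, and in RKO, at 19.2, 29.5 and 22.6 TPM with doxycycline, against 27.8, 34.7 and 29.4 TPM with vehicle.

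The members called higher in both COLO 201 and H1975 numbered 11. They were NPM3, NHP2, POLR1B, NOP14, RRP12, NOP16, RRS1, WDR12, NOB1, NOC2L and BYSL, and they span every role except box C/D. They made up 55% of the 20 higher members of COLO 201 and 61.1% of the 18 of H1975. Over the 10823 genes tested in both lines the same shares were 30.1% and 56.3%. BYSL and NOC2L turned to -0.02 and -0.00 in COLO 201 after rescaling. After rescaling 5 members were shared, 62.5% of 8 in COLO 201 and 31.2% of 16 in H1975, and over all genes tested in both the rescaled shares were 29.7% and 36.5%. Across the 40 members the changes in the 2 lines had a Pearson r of 0.332 and a Spearman rho of 0.339, against 0.205 and 0.179 over all genes tested in both. These are correlations across genes of the same libraries, which are not independent replicates.

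**Figure D4:**
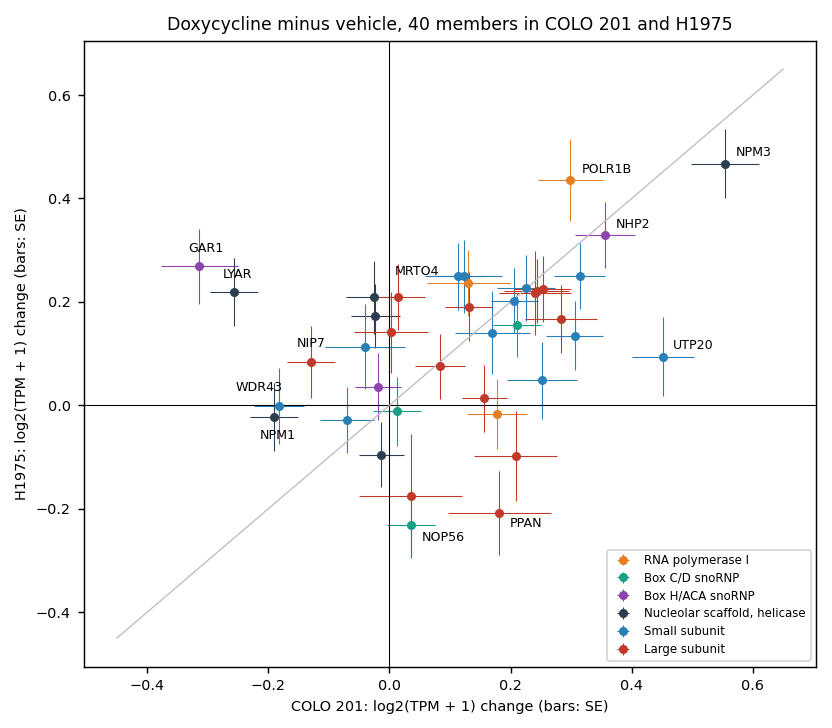
Change of each member in COLO 201 (horizontal axis) against H1975 (vertical axis), doxycycline minus vehicle on the log2(TPM + 1) scale, with standard errors from limma and colors for roles. The gray line marks equal changes. NPM3, NHP2 and POLR1B lie at the upper right, while GAR1 and LYAR lie left of 0 in COLO 201 and above 0 in H1975.

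The difference between lines was tested in a joint limma fit as a contrast of the changes, over 9401 genes. Between COLO 201 and H1975, 1 of 40 members differed, beside 7.2% of all genes tested. That member was GAR1, whose change was lower in COLO 201 by a difference of -0.58 ± 0.16 (limma adjusted p = 0.032, and -0.67 with adjusted p = 7.6e-05 after rescaling). For LYAR, called in opposite directions, the difference was -0.48 ± 0.15 with a limma adjusted p of 0.053, and -0.57 with an adjusted p of 4.5e-05 after rescaling. After rescaling 9 members differed, beside 26.5% of all genes tested. With the more variable RKO columns left out of the fit, an alternative chosen after seeing the data, 10 members differed between COLO 201 and H1975, beside 38.6% of all genes tested. Changes were higher in COLO 201 than in H1975 for NOP56, UTP20, PPAN and BOP1 in that fit, and lower for GAR1, LYAR, NIP7, MRTO4, NOLC1 and DDX21. UTP20 gave 0.36 ± 0.09 (limma adjusted p = 0.0057), NOP56 0.27 ± 0.06 (limma adjusted p = 0.0038) and LYAR -0.48 ± 0.07 (limma adjusted p = 7.4e-05).

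RKO differed from COLO 201 in 22 members, all with a lower change in RKO, beside 48.5% of all genes tested, and from H1975 in 24, likewise all lower in RKO, beside 41.4%. After rescaling these counts were 9 and 13, beside 38.2% and 34.3%, and 3 and 2 of them were higher in RKO. The joint fit takes a common spread per gene over the lines, while RKO columns were more variable. Standard errors of the RKO changes alone were 0.18 for UTP20, 0.21 for MRTO4 and 0.23 for NHP2. Those of the differences below are smaller and so understated, and p-values and counts of differences with RKO may be too strong. UTP20 had a difference of -1.17 ± 0.14 between RKO and COLO 201 (limma adjusted p = 4.9e-06, and -0.78 after rescaling). MRTO4 had a difference of -0.93 ± 0.14 between RKO and H1975 (limma adjusted p = 7.1e-05, and -0.60 after rescaling). NHP2 had a lower change in RKO than in either line, by differences of -0.88 ± 0.17 against COLO 201 and -0.85 ± 0.17 against H1975 (limma adjusted p = 4.4e-04 and 8.6e-04, and 0.023 and 0.013 after rescaling). After rescaling LYAR and GAR1 had higher changes in RKO than in COLO 201, by 0.45 and 0.38 (limma adjusted p = 1.2e-04 and 0.0031).

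Other genes of the pathway were read from lists that leave out the members. In H1975, 12 of 39 other small subunit factors were higher and 1 lower, 20 of 43 other large subunit factors higher and 0 lower, and 6 of 13 other RNA polymerase I genes higher and 1 lower. Other snoRNP genes gave 7 of 11 higher and 0 lower, and RNA exosome genes, whose products trim the precursor, 8 of 14 higher and 0 lower. Where these counts of lower genes were 0, they were 0 at an unadjusted limma p under 0.05 too. The medians of these lists lay between 0.12 and 0.22, against 0.06 over all genes tested, and at 0.07 to 0.17 after rescaling, against 0.02. The shares over all genes tested in H1975 were 23.9% higher and 14.6% lower. In COLO 201 the same lists gave 14 higher and 3 lower of 39, 14 and 3 of 43, 2 and 2 of 13, 5 and 0 of 11 and 8 and 1 of 14. Of these lists, only the exosome genes had a higher share, 57.1%, above the 45.9% of all genes tested in COLO 201, and the lower share of all genes was 15%. After rescaling the COLO 201 counts were 2 and 10, 5 and 12, 1 and 6, 0 and 2, and 1 and 1, beside 27.3% and 29.7% of all genes tested. In RKO, 0 were higher and 4, 3, 4, 2 and 3 were lower in lists of 39, 44, 13, 11 and 14 genes, beside 2.09% and 16.1% of all genes tested. At an unadjusted limma p under 0.05 these RKO counts were 0 higher in each list and 12, 11, 5, 3 and 5 lower. The share over all genes at that cutoff is not given. After rescaling the RKO counts higher and lower at the adjusted threshold were 5 and 5, 6 and 4, 3 and 3, 2 and 0, and 0 and 3. Beside these, 13.8% and 14% of all genes tested were higher and lower, so the absence of higher genes in RKO rested on the scaling in all but the exosome list.

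The ribosomal protein genes, whose products form the subunits themselves, had medians nearer 0 than the members as deposited. Of 78 tested, 7 were higher and 6 lower in H1975 with a median of 0.02, 13 higher and 6 lower in COLO 201 with a median of -0.00, and 0 higher and 1 lower in RKO with a median of -0.08, the same RKO counts as at an unadjusted limma p under 0.05. The shares over all genes were 23.9% and 14.6% in H1975, 45.9% and 15% in COLO 201, and 2.09% and 16.1% in RKO. After rescaling the ribosomal protein genes gave 2 higher and 10 lower in H1975 and 0 higher and 30 lower in COLO 201. In RKO they gave 8 higher and 0 lower, and the 3 medians were -0.03, -0.13 and 0.22. The rescaled shares over all genes were 21.2% and 18.5% in H1975, 27.3% and 29.7% in COLO 201, and 13.8% and 14% in RKO.

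**Figure D5:**
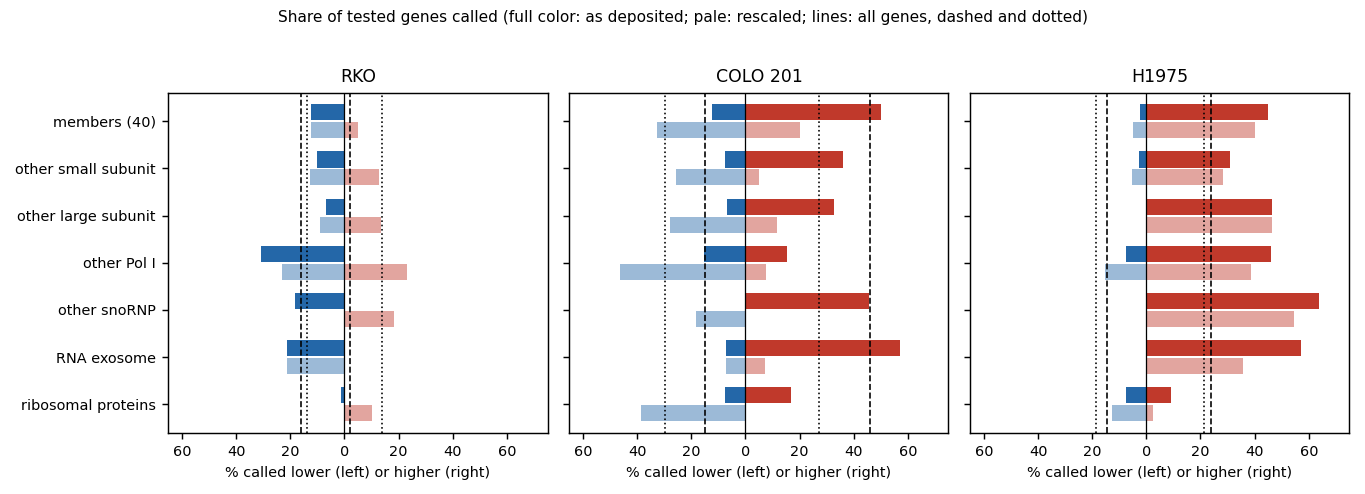
Share of the tested genes of each list called lower (left of 0) or higher (right of 0) with doxycycline, in percent, in RKO, COLO 201 and H1975. Full color is as deposited, pale after median ratio rescaling, and dashed and dotted lines give the share over all genes tested as deposited and rescaled. In H1975 the assembly factor lists reach 30.8% to 63.6% higher and ribosomal proteins 8.97%, while in COLO 201 the higher shares shrink after rescaling.

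Single genes of those lists had larger changes than most members. EMG1, a methyltransferase of the small subunit RNA, stood at 8.01, 11.5 and 7.89 TPM with doxycycline in RKO, against 22.6, 23.1 and 22.0 TPM with vehicle (-1.24 ± 0.20, limma adjusted p = 9.4e-05, and -0.96 after rescaling). EMG1 was also lower in H1975, at 113, 109 and 118 TPM with doxycycline, against 134, 123 and 131 TPM with vehicle (-0.19 ± 0.07, limma adjusted p = 0.032). TTF1, which ends RNA polymerase I transcription, stood at 4.18, 5.56 and 5.13 TPM with doxycycline in RKO, against 9.45, 11.2 and 9.80 TPM with vehicle (-0.91 ± 0.18, limma adjusted p = 8.9e-04). It fell in COLO 201 too, at 26.7, 23.0 and 20.5 TPM with doxycycline, against 33.1, 34.1 and 31.7 TPM with vehicle (-0.49 ± 0.08, limma adjusted p = 1.5e-04). Both TTF1 changes held after rescaling, at -0.65 and -0.61, and the arms were apart in each line. EBNA1BP2, a large subunit factor, stood at 30.7, 43.5 and 36.5 TPM with doxycycline in RKO, against 129, 66.3 and 59.6 TPM with vehicle (-1.11 ± 0.26, limma adjusted p = 0.0032), with the highest value in vehicle column 1, and its call was lost after rescaling (adjusted p = 0.092).

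SBDS, which helps release the factor EIF6 from the large subunit, rose in both COLO 201 and H1975. It stood at 587, 545 and 668 TPM with doxycycline in H1975, against 393, 451 and 409 TPM with vehicle (0.52 ± 0.08, limma adjusted p = 2.2e-04). It stood at 71.6, 76.8 and 66.9 TPM with doxycycline in COLO 201, against 56.2, 57.4 and 54.5 TPM with vehicle (0.35 ± 0.05, limma adjusted p = 8.2e-05). SBDS has a near-identical pseudogene, so its counts are uncertain. TAF1B, a subunit of the RNA polymerase I selectivity factor, and MTREX, the helicase that feeds the RNA exosome, rose in H1975 by 0.51 ± 0.09 and 0.42 ± 0.08 (limma adjusted p = 7.0e-04 and 0.0014). UBTF, which binds ribosomal DNA and recruits RNA polymerase I, fell there to 53.1, 56.0 and 49.9 TPM with doxycycline, against 60.03, 63.8 and 64.2 TPM with vehicle (-0.24 ± 0.07, limma adjusted p = 0.015). In COLO 201, PELP1 and POLR1E rose by 0.33 ± 0.05 and 0.28 ± 0.04 (limma adjusted p = 6.2e-05 and 1.4e-04), while URB1 and PNO1 fell by 0.45 and 0.33 (limma adjusted p = 5.5e-06 and 6.2e-05), and all 4 calls held after rescaling.

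MYC rose in all 3 lines as deposited. It stood at 540, 549 and 569 TPM with doxycycline in H1975, against 343, 352 and 390 TPM with vehicle (0.61 ± 0.07, limma adjusted p = 1.1e-05, and 0.57 after rescaling). It stood at 88.7, 93.7 and 90.1 TPM with doxycycline in COLO 201, against 63.2, 64.97 and 64.2 TPM with vehicle (0.50 ± 0.04, limma adjusted p = 5.3e-07, and 0.36 after rescaling). The RKO values were 78.9, 107 and 89.5 TPM with doxycycline, against 44.97, 69.6 and 58.4 TPM with vehicle (0.67 ± 0.23, limma adjusted p = 0.043, and 0.97 with adjusted p = 0.0041 after rescaling). The arms were apart in each line. The RKO call was lost without vehicle column 1, its lowest column (0.51, limma adjusted p = 0.12), and held without it after rescaling (0.82, limma adjusted p = 3.6e-07). Of the tested MYC network genes, 2 of 8 were higher and 0 lower in RKO, 4 of 11 higher and 1 lower in COLO 201, and 4 of 10 higher and 1 lower in H1975. The shares over all genes were 2.09% and 16.1% in RKO, 45.9% and 15% in COLO 201, and 23.9% and 14.6% in H1975. After rescaling the counts were 3 and 0 in RKO, 2 and 5 in COLO 201, and 3 and 2 in H1975. The rescaled shares over all genes were 13.8% and 14%, 27.3% and 29.7%, and 21.2% and 18.5%. MXD1, which competes with MYC for the partner MAX, had changes of 0.69 in RKO, -0.67 in COLO 201 and 0.39 in H1975, each called, as deposited and rescaled. MXD1 was picked from the network list outside the naming rule given below, and values of the other network genes besides MYC are not given. Markers of other cell types moved with the arms in each line, as given above, and their part in these results was not tested.

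The 10 members with CACGTG, shown above for 5 of them, did not share a direction across lines as deposited. Their median change was 0.14 in H1975, with 3 higher and 0 lower, and 0.17 for the 24 matched members without the word, with 12 higher and 1 lower. In COLO 201 it was 0.23 with the word, with 8 higher and 1 lower, and 0.10 without it, with 9 higher and 4 lower. The shares over all genes tested were 45.9% higher and 15% lower in COLO 201, and 23.9% and 14.6% in H1975. After rescaling the COLO 201 medians were 0.10 with the word, with 4 higher and 2 lower, and -0.02 without it, with 4 higher and 9 lower. The rescaled shares over all genes tested in COLO 201 were 27.3% and 29.7%. In H1975 the rescaled medians were 0.10 with the word, with 3 higher and 0 lower, and 0.12 without it, with 10 higher and 2 lower. The rescaled shares there were 21.2% and 18.5%. In RKO the median change as deposited was -0.36 with the word and -0.31 without it, against -0.26 over all genes tested. Each set had 0 higher and 2 lower, beside 2.09% and 16.1% of all genes tested. After rescaling the RKO medians were -0.07 with the word, with 0 higher and 3 lower, and -0.02 without it, with 2 higher and 2 lower. The rescaled shares over all genes in RKO were 13.8% and 14%. These are descriptions of small sets, and the members' changes with and without the word were not tested against each other.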

How the data were processed

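The authors deposited TPM per gene for 6 columns of each line, and the values are used as deposited; the tool that made them is not given in the sources used here. The submitters' processing notes name STAR, DESeq2 and the genome GRCh38, without versions or roles. Libraries were made with a stranded messenger RNA kit, per the labels' protocols. TPM keep no read totals, so depth and counting error are unknown, and 3 columns per arm limit the precision.

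Genes with a mean of at least 1 TPM (10551 in RKO, 11566 in COLO 201, 12359 in H1975) were tested within each line with limma 3.58.1 in R 4.3.3, with a trend, on log2(TPM + 1), which understates changes of low genes. P-values are two-sided and Benjamini-Hochberg adjusted over all genes of the fit. Joint fits over 9401 genes tested differences between lines. An exact permutation test of 3 against 3 columns cannot go below 0.1. Of the COLO 201 entries, 28 named as dates were dropped. No count test was run, since TPM keep no depth.

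The members and lists were chosen with earlier results of these data known. The lists were other small subunit, large subunit, RNA polymerase I, snoRNP and RNA exosome factors, ribosomal proteins, the MYC network, 4 genes of growth arrest (CDKN1A, CDKN2A, MDM2 and MDM4; a further gene is not reported here), and markers of epithelial cells, of fibroblasts with endothelial cells, and of leukocytes with erythroid cells. Values by column are given, in each line, for up to 5 members higher and 5 lower with the largest change among those called whose arms do not overlap. They are also given for up to 5 members called the same way in at least 2 lines, and up to 5 called in opposite directions. Of the other biogenesis lists, up to 3 higher and 3 lower genes per line are named, and MYC. MXD1 and the 4 genes of growth arrest are named outside this rule. Alternatives were pseudocounts of 0.1 and 5, no minimum and a minimum of 5 TPM, median ratio rescaling, no trend, a replicate block and leaving out each column. Loci are from GENCODE 29 (GRCh38) and promoter windows from RefSeq (GRCh38.p14). Small nucleolar RNAs hosted by the members were not analysed here.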

Additional observations from a re-analysis of the deposited data

Results flagged for a closer look

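The change with doxycycline differed between lines in 20 of 51 tests over the 17 members described by column, by the joint limma fit at an adjusted p under 0.05. These members were named for large or opposite changes. Of the 17, 9 differed between RKO and COLO 201, 10 between RKO and H1975 and 1 between COLO 201 and H1975, beside 48.5%, 41.4% and 7.2% of all genes tested, so the counts are no result about the members. Values are differences of changes on the log2(TPM + 1) scale. The joint fit takes a common spread over the lines, so p-values of differences with the more variable RKO columns may be too small. Between COLO 201 and H1975 the difference was -0.58 for GAR1. Between RKO and COLO 201 it was -1.17 for UTP20, -0.90 for BOP1, -0.88 for NHP2, -0.73 for MRTO4, -0.67 for TSR1, -0.64 for NPM3, -0.58 for DKC1, -0.53 for IMP4 and -0.48 for NOP56. Of these 9, only BOP1, MRTO4, NHP2 and UTP20 were still past the threshold after rescaling. Between RKO and H1975 it was -0.93 for MRTO4, -0.85 for NHP2, -0.81 for UTP20, -0.72 for TSR1, -0.64 for DKC1, -0.62 for GAR1, -0.60 for BOP1, -0.47 for NPM1, -0.45 for NIP7 and -0.44 for LYAR. Of these 10, GAR1, MRTO4, NHP2, TSR1 and UTP20 were still past the threshold after rescaling. RKO vehicle column 1, which held fibroblast markers, enters every difference with RKO, and the median of all genes tested was also lower in RKO, by differences of -0.38 against COLO 201 and -0.34 against H1975. The part of these in the differences was not tested gene by gene.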

How the results depend on the processing

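Median ratio rescaling gave 2 members higher in RKO with a median change of -0.039, and 8 higher and 13 lower in COLO 201 with a median of 0.00081. Beside these, 13.8% of all genes tested were higher in RKO, and 27.3% higher and 29.7% lower in COLO 201. Rescaling gave 2 lower in H1975, beside 18.5% of all genes tested. It gave 9 members differing between COLO 201 and H1975, 9 between RKO and COLO 201 and 13 between RKO and H1975. Beside these, 26.5%, 38.2% and 34.3% of all genes tested differed. Other settings gave 2 lower in H1975 with a pseudocount of 5, no minimum or no trend, beside 14.4%, 11.6% and 14.7% of all genes tested. With no minimum, 0 were lower in RKO, beside 0.0873% (limma, 15 at an unadjusted p under 0.05). With a pseudocount of 5, 2 differed between COLO 201 and H1975, a count given without its share over all genes. Leaving out RKO vehicle column 1 and rescaling gave 10 higher, 11 lower and a median of -0.044, beside 29.1% and 29.8% of all genes tested. Of settings chosen after seeing the data, removing small noncoding RNA genes gave an RKO median of -0.073, and fitting without RKO gave 10 members differing between COLO 201 and H1975, beside 38.6% of all genes tested. Leaving out each column gave 0 to 11 lower and 0 to 0 higher in RKO with a median of -0.44 to -0.24. It gave 17 to 20 higher and 5 to 5 lower in COLO 201 with a median of 0.10 to 0.15, and 6 to 17 higher and 1 to 2 lower in H1975 with a median of 0.12 to 0.18. Beside these counts, 4.48% to 21.8% of all genes tested were lower in RKO and 39.2% to 48.6% higher in COLO 201. In RKO 0.951% to 2.44% were higher, and in COLO 201 12.1% to 17% were lower. The H1975 count of 6 stood beside 15.7%. The other H1975 counts of these ranges are given here without shares and are no result about the members. Without RKO vehicle column 1, 26 members differed between RKO and COLO 201 and 27 between RKO and H1975, beside 58% and 52.5% of all genes tested. Columns with the same number did not deviate together in every pair (correlations of -0.42 to 0.29). In RKO the correlations were 0.29, 0.27 and -0.01 for numbers 1, 2 and 3. Whether columns with the same number were paired is not known. A replicate block gave 0 higher and 7 lower in RKO, 21 and 5 in COLO 201, and 8 and 1 in H1975. Beside these, 19.6% of all genes tested were lower in RKO, 49.7% higher in COLO 201 and 17.9% higher in H1975, so under the block the H1975 share of higher members lay near the background. Under the block 3.26% were higher in RKO, 17.4% lower in COLO 201 and 12.4% lower in H1975. All genes called numbered 1915 in RKO, against 28 with no minimum, 2921 rescaled, 6055 rescaled without vehicle column 1 and 595 to 2410 with a column left out. They numbered 7052 in COLO 201 (6077 to 7202) and 4759 in H1975 (3075 to 5206). Of 360 settings for single members, 43 lost the call, 27 of them in RKO, and 0 reversed it. TPM hold no read depth, so what depth limits is unknown.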

Other observations

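CDKN1A, which encodes the cell cycle inhibitor p21, was called higher in all 3 lines as deposited. CDKN1A stood at 114, 109 and 102 TPM with doxycycline in H1975, against 74.6, 80.1 and 86.5 TPM with vehicle (0.43 ± 0.07, limma adjusted p = 5.1e-04). It stood at 39.8, 56.1 and 50.8 TPM with doxycycline in RKO, against 16.3, 28.9 and 26.3 TPM with vehicle (1.03 ± 0.24, limma adjusted p = 0.0028). It stood at 5.85, 5.41 and 4.93 TPM with doxycycline in COLO 201, against 4.28, 3.78 and 4.58 TPM with vehicle (0.30 ± 0.08, limma adjusted p = 0.0057), a call lost after rescaling (adjusted p = 0.062). MDM2, a ubiquitin ligase that binds free ribosomal proteins, had changes of 0.40 in H1975, -0.30 in COLO 201 and 0.13 in RKO (limma adjusted p = 0.0026, 9.8e-04 and 0.71). MDM4, a relative of MDM2, had changes of 0.29 in H1975, 0.03 in COLO 201 and -0.32 in RKO (limma adjusted p = 0.0069, 0.82 and 0.23). CDKN2A, which encodes the inhibitors p16 and ARF, had changes of -0.10 in H1975 and 0.36 in COLO 201 (limma adjusted p = 0.27 and 2.8e-05). In RKO, CDKN2A stood at 48.3 TPM in vehicle column 1 and at or below 0.0720 TPM in the other 5 columns, and was not called (limma adjusted p = 0.068).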
